A study of Mus musculus with 2 samples.

Results

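Transcripts of 9 genes of bicarbonate transport and carbonic anhydrase activity, of 32227 genes counted, were followed through the cell classes of the mouse thick ascending limb (TAL). The genes were chosen by name, with earlier results of these data known. They were the transporters Slc4a1, Slc4a2, Slc4a4, Slc4a7 and Slc26a7, and the carbonic anhydrases Car2, Car4, Car12 and Car15. Nuclei came from kidneys of male B6 mice, labelled wild type and with an age of 12 whose unit the labels do not give, that carried the INTACT reporter (the nuclear envelope protein SUN1 fused to sfGFP) and a tamoxifen-inducible Cre driven by the gene of the cotransporter NKCC2 (Slc12a1). After tamoxifen, kidneys were cut into a superficial strip, called cortex, and the remaining tissue, called medulla, which therefore also holds deep cortex. Green nuclei were sorted (150000 per region, of which 17000 were loaded), and 1 library of single-nucleus RNA was made from each region, so that region and library cannot be told apart and no test across animals was possible. Both libraries carry the reporter and the Cre, and the labels do not say how many mice each holds.

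Carbonic anhydrases interconvert carbon dioxide and bicarbonate, inside cells and on their surface. The TAL takes up much of the bicarbonate that the proximal tubule leaves behind: protons leave the cell through the sodium-proton exchanger Slc9a3 (NHE3), surface carbonic anhydrase turns luminal bicarbonate into carbon dioxide, and cytosolic carbonic anhydrase reverses the reaction so that bicarbonate can leave on the blood side. Slc4a2 (AE2) is a chloride-bicarbonate exchanger of that side, Slc4a7 (NBCn1) an electroneutral sodium-bicarbonate cotransporter known from the medullary TAL, and Slc4a4 (NBCe1) the electrogenic cotransporter by which the proximal tubule returns bicarbonate to blood. Slc4a1 (AE1) and Slc26a7 are exchangers of intercalated cells, and Slc4a1 is also the anion exchanger of red blood cells. Car2 is cytosolic, Car4 and Car15 are held on the cell surface by a lipid anchor, and Car12 spans the membrane.

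Barcodes called as nuclei numbered 5442 in cortex (16457300 counts) and 8121 in medulla (20947211 counts), and the libraries shared 0 barcode sequences. Of these, 5218 cortical (95.9%) and 7967 medullary barcodes (98.1%) held at least 10 Slc12a1 counts and were taken as TAL. They were divided by counts of marker genes into macula densa (MD; Nos1 and Pappa2 together at least 3), else TAL-β (Tmem52b at least 2), else TAL-γ (Tmem207 and Gpc5 together at least 2), else TAL-α. Cortex held 2824 TAL-α, 1493 TAL-β, 248 TAL-γ and 653 MD barcodes, and medulla held 3776, 571, 3542 and 78, with median depths of 1883 to 2780 counts. These classes are ranges of marker counts rather than pure types: 425 cortical and 370 medullary barcodes had 1 Tmem52b count and so lay just under the TAL-β gate, and 559 (10.7%) and 373 (4.68%) TAL barcodes passed more than 1 gate. Without the latter, medullary TAL-β went from 571 to 212 barcodes and cortical TAL-β from 1493 to 1018. Most medullary TAL-β barcodes thus also met the TAL-γ gate. The potassium channel Kcnj10, which was not used in the gates, stood at 17.8 and 13.2 counts per 1000000 (CPM) in cortical and medullary TAL-α, 139 and 170 CPM in TAL-β, and 144 and 109 CPM in TAL-γ, so it separated TAL-β and TAL-γ from TAL-α. The claudin Cldn10 was nonetheless counted at 116 CPM in cortical TAL-β, against 216 CPM in cortical TAL-α. The claudin Cldn16 stood at 153 CPM in cortical TAL-γ, against 188 CPM in cortical TAL-β and 55.0 CPM in medullary TAL-γ. The study describes TAL-γ cells as confined to medulla. The 248 cortical TAL-γ barcodes are therefore named for the gate and may be of another type.

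The libraries also held RNA of the proximal tubule. A list of 7 proximal tubule markers summed to 2345 CPM in TAL-α of cortex, against 363 CPM in medulla, with 7 of 7 genes above 0 in all 8 groups of class and library. Its counts were concentrated: 1963 of 2824 cortical TAL-α barcodes (69.5%) held none, while 299 (10.6%) held over 20, against 3455 of 3776 (91.5%) and 47 (1.24%) in medulla. The share with over 20 was 15.1% in cortical TAL-β, 16.5% in TAL-γ and 5.97% in MD, and 1.24% to 2.63% in the medullary classes. Because the proximal tubule itself uses several of the 9 genes, values in barcodes with no proximal tubule count are given beside the results they move. Barcodes with at most 2 Slc12a1 and at least 5 proximal tubule counts (86 in cortex, 97 in medulla) served as a proximal tubule-type reference.

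In GRCm39, the build of the files, Car15 spans chr16:17653140-17656228 on the minus strand and Car12 chr9:66615426-66674186 on the plus strand. Car2 lies at chr3:14951317-14967568 and Car4 at chr11:84848020-84856879, both on the plus strand. Slc4a4 (chr5:89034345-89387514) and Slc4a2 (chr5:24628835-24645948) are on the plus strand, and Slc4a7 (chr14:7669819-7767484), Slc4a1 (chr11:102239650-102257029) and Slc26a7 (chr4:14502430-14621819) on the minus strand. In GENCODE M39, Aph1b runs antisense over the whole of Car12, Fastk runs antisense over 4203 bases of Slc4a2, and Gm20518, which is not among the genes counted, covers 3088 of the 3089 bases of Car15 on its own strand. Whether counting used strand is not given in the sources used here, so reads of such pairs may not be told apart.

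The 250 bases before the start of the Ensembl canonical transcript are shown for Car15, Car12 and Slc4a7, the 3 genes with the widest spread over the index sets of medullary TAL-α described below. They are written 5′ to 3′ on the gene's strand from the GRCm39 sequence, with capitals at matches to 6 short motifs on either strand.
Car15, chr16:17656229-17656478, minus strand: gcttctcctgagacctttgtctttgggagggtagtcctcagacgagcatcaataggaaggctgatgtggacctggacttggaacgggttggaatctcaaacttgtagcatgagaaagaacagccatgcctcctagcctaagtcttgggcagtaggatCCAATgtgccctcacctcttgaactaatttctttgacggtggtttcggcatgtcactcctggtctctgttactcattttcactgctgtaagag
Car12, chr9:66620467-66620716, plus strand: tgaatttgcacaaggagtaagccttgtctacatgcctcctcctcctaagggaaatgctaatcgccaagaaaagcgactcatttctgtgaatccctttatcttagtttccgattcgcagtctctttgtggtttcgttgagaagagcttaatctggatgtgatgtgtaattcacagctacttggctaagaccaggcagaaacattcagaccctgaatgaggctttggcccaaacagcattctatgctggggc
Slc4a7, chr14:7767485-7767734, minus strand: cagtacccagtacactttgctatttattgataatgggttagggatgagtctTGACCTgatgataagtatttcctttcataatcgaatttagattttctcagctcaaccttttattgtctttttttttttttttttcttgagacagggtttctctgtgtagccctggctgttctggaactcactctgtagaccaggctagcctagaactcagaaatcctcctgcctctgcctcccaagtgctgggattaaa
Over the 21770 protein-coding genes with such a window, GTTAAT, the core of sites of hepatocyte nuclear factor 1, was found in 6.28% of windows. The palindromic E-box CACGTG was found in 6.26%, the box TATAAA in 11.9% and the box CCAAT in 36.5%. A piece of the tonicity-responsive element, TGGAAA, was found in 19.4%, and the nuclear receptor site AGGTCA in 13.1%. Car15 held 1 match, to CCAAT from 93 to 89 bases before the start. Slc4a7 held 1 match, to AGGTCA on the reverse strand from 199 to 194 bases before the start, and Car12 held 0. With 0 matches in Car12, no motif could be shared by the 2 genes that fell together, and none of the 3 windows held the tonicity motif. The Car12 window lies inside the gene span given above, since its canonical transcript starts further in. Whether any of these matches or their absence bears on the levels was not tested.

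Car15 was the member with the widest range of levels. It was counted at 495 CPM (95% Poisson interval 480 to 511) in cortical TAL-α, 761 CPM (738 to 785) in TAL-β, 480 CPM (434 to 530) in TAL-γ and 804 CPM (761 to 848) in MD. In medulla it stood at 141 CPM (134 to 149) in TAL-α, 518 CPM (485 to 553) in TAL-β, 37.8 CPM (33.9 to 42.0) in TAL-γ and 855 CPM (720 to 1008) in MD. MD had the highest value in both libraries, but its interval overlapped that of TAL-β in cortex, and the 2 MD groups overlapped each other. Cortical TAL-α and TAL-γ also overlapped, and medullary TAL-γ was lowest, 22.6-fold below medullary MD. All intervals given here take each count as independent, and so they hold the error of counting and no other. Car15 was found in 60.2% of cortical TAL-α and 84.7% of cortical TAL-β barcodes, and in 17.1% and 59.7% of the same classes of medulla. After thinning every barcode to 1000 counts (0 cortical and 23 medullary barcodes left out) these shares were 35.8%, 55.6%, 9.21% and 37.0%. Among proximal tubule-type barcodes, which were deeper (medians of 3488 and 4590 counts), 6.98% of the cortical and 0 of the 97 medullary ones held a Car15 count, 14.9 and 0 CPM. In TAL barcodes with no proximal tubule count, Car15 was at 572, 989, 558 and 944 CPM in TAL-α, TAL-β, TAL-γ and MD of cortex and at 138, 529, 36.3 and 870 CPM in those of medulla. Uncalled barcodes, of at most 100 counts, held 879 CPM of Car15 in cortex against 211 CPM in medulla.

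**Figure D1:**
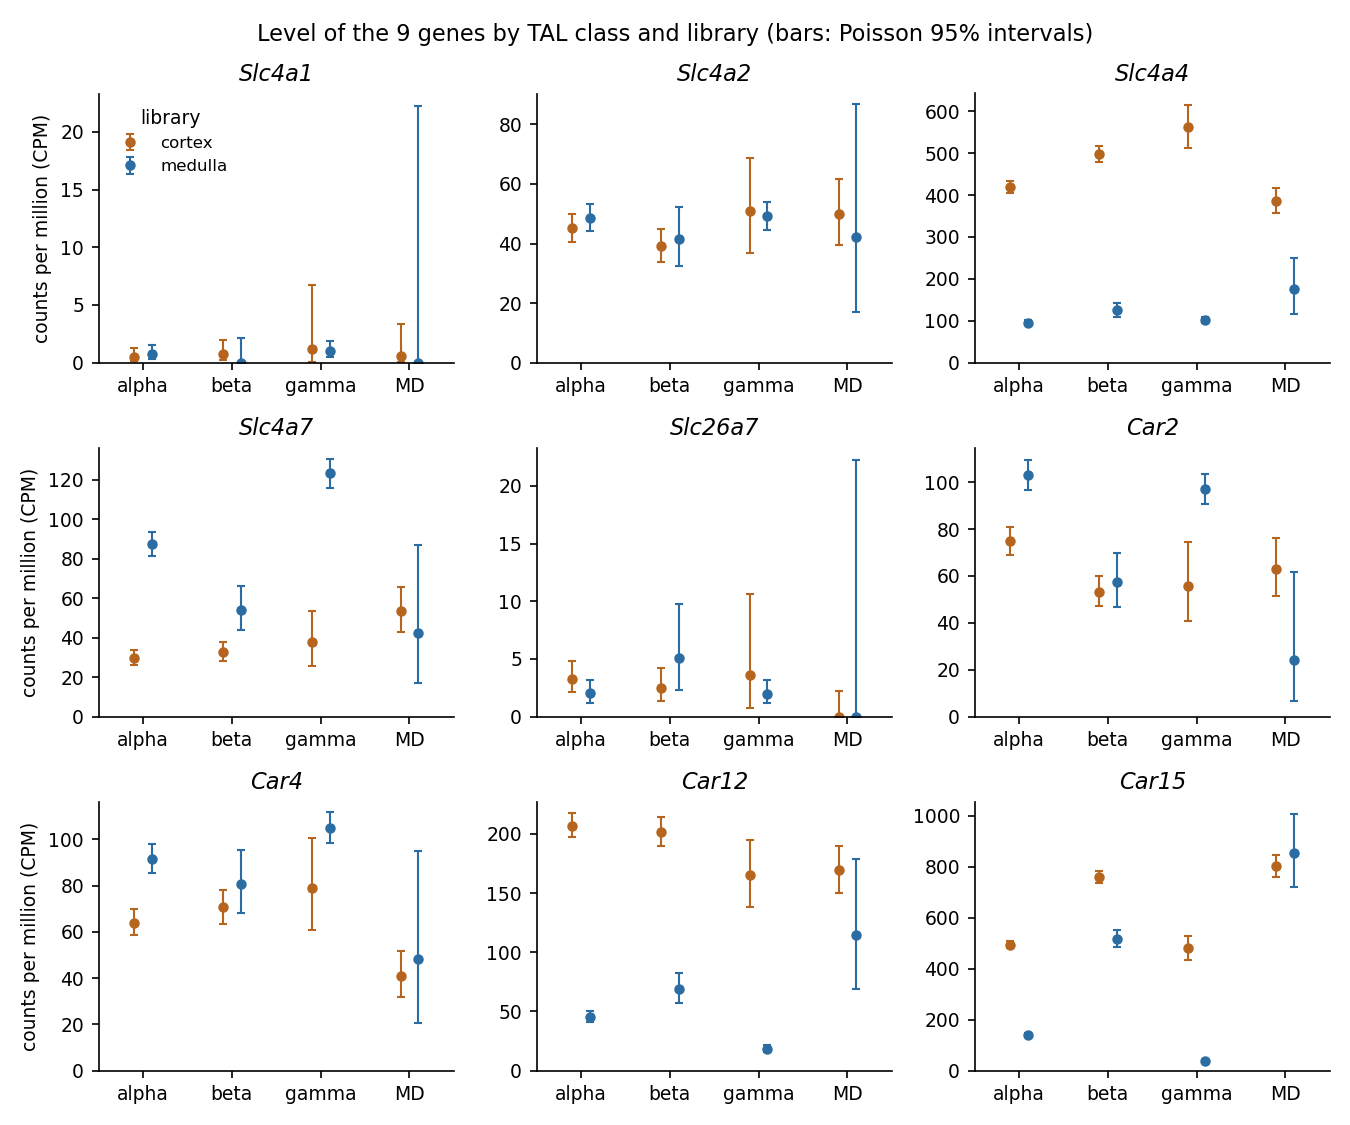
CPM of each of the 9 genes (vertical axes, each from 0) in the TAL classes alpha, beta, gamma and MD (horizontal axis) of the cortex library (brown) and the medulla library (blue), with Poisson 95% intervals as bars. Car15 is highest in MD of both libraries (804 and 855 CPM) and lowest in medullary gamma (37.8 CPM), Slc4a4 and Car12 sit higher in cortex in every class, and Slc4a7 is highest in medullary gamma (123 CPM).

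Car12 was counted at 207 CPM (197 to 217) in cortical TAL-α, 201 CPM (189 to 214) in TAL-β, 165 CPM (138 to 195) in TAL-γ and 169 CPM (150 to 190) in MD. In medulla the values were 45.7 CPM (41.5 to 50.3) in TAL-α, 68.9 CPM (57.2 to 82.3) in TAL-β, 18.7 CPM (16.0 to 21.7) in TAL-γ and 114 CPM (68.9 to 179) in MD. The cortical classes lay close together, with overlapping intervals for TAL-α and TAL-β and for TAL-γ and MD, whereas the 3 medullary tubule classes were apart from each other. Proximal tubule-type barcodes held more Car12 than TAL-α, 536 CPM in cortex and 153 CPM in medulla. Uncalled barcodes held 201 CPM in cortex and 52.0 CPM in medulla, near the levels of TAL-α. Without any proximal tubule count, Car12 was at 147 CPM (136 to 158) in cortical and 39.2 CPM (35.1 to 43.7) in medullary TAL-α, so cortex stayed higher. The other cortical classes then spread further, to 121 CPM (107 to 135) in TAL-β, 72.1 CPM (48.7 to 103) in TAL-γ and 93.1 CPM (75.8 to 113) in MD, and TAL-α and TAL-β no longer overlapped. Medullary MD stood at 96.7 CPM (52.9 to 162) in such barcodes, so Car12 in MD was not higher in cortex there.

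Slc4a4 behaved differently. It was counted at 418 CPM (404 to 433), 498 CPM (479 to 518), 562 CPM (512 to 616) and 386 CPM (357 to 417) in TAL-α, TAL-β, TAL-γ and MD of cortex. In medulla the values were 95.2 CPM (89.1 to 102), 125 CPM (109 to 143), 102 CPM (95.5 to 109) and 175 CPM (117 to 251). All cortical groups were therefore above all medullary groups. The counts lay in few barcodes, however: the 299 cortical TAL-α barcodes with over 20 proximal tubule counts held 86.8% of the Slc4a4 counts of their class, at 1621 CPM, and the 47 medullary ones held 55.5%, at 1559 CPM. Proximal tubule-type barcodes held 1929 CPM in cortex and 1488 CPM in medulla, and uncalled barcodes held 502 and 136 CPM. In TAL-α barcodes with no proximal tubule count, Slc4a4 stood at 44.7 CPM (38.9 to 51.2) in cortex and 38.7 CPM (34.6 to 43.2) in medulla, and the intervals overlapped. In the same barcodes of the other cortical classes it was 46.7 CPM in TAL-β, 62.5 CPM in TAL-γ and 74.7 CPM in MD.

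**Figure D2:**
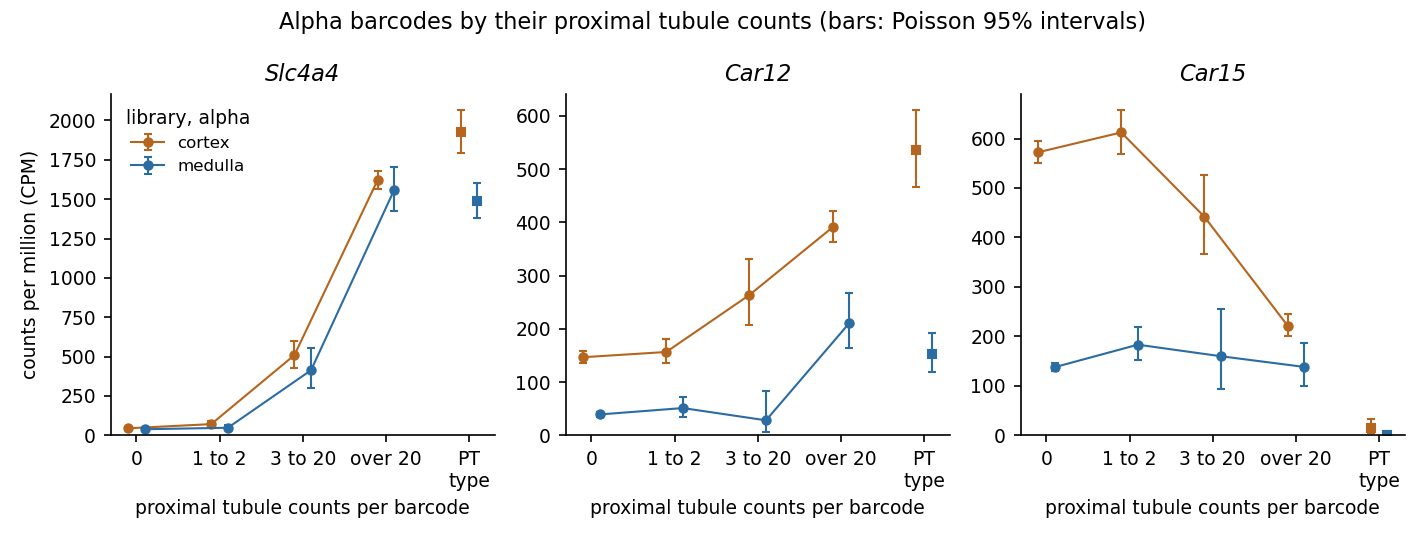
CPM of Slc4a4, Car12 and Car15 (vertical axes, from 0) in alpha barcodes grouped by how many proximal tubule counts they hold (horizontal axis, circles), with proximal tubule-type barcodes (PT type, squares) at the right, cortex in brown, medulla in blue and Poisson 95% intervals as bars. Slc4a4 climbs from 44.7 and 38.7 CPM to 1621 and 1559 CPM with the proximal tubule counts in both libraries, whereas Car15 is at 14.9 and 0 CPM in PT type and Car12 differs between the libraries in barcodes with none (147 and 39.2 CPM).

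Slc4a7 was higher in medulla than in cortex in TAL-α, TAL-β and TAL-γ. It was counted at 29.6 CPM (26.0 to 33.7) in cortical TAL-α, 32.7 CPM (28.0 to 38.0) in TAL-β, 37.6 CPM (25.5 to 53.3) in TAL-γ and 53.4 CPM (42.9 to 65.7) in MD. In medulla it reached 87.4 CPM (81.5 to 93.6) in TAL-α and 123 CPM (116 to 131) in TAL-γ, while TAL-β stood at 54.1 CPM (43.8 to 66.1) and MD at 42.2 CPM (17.0 to 86.9). Medullary TAL-γ and TAL-α were thus above every other group beyond counting error, except that the interval of the 78 medullary MD barcodes reached into that of TAL-α. Proximal tubule-type barcodes held 24.8 and 30.6 CPM of Slc4a7, and barcodes with no proximal tubule count gave 31.5 and 90.1 CPM in cortical and medullary TAL-α. Uncalled barcodes differed in the same direction, with 33.1 CPM in cortex and 81.6 CPM in medulla.

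Car2 and Car4 were also highest in medullary TAL-α and TAL-γ. Car2 was highest in medullary TAL-α, 103 CPM (96.5 to 110), and TAL-γ, 96.8 CPM (90.5 to 103), followed by cortical TAL-α, 74.7 CPM (68.8 to 81.0). The other groups lay between 24.1 CPM (medullary MD, 4 counts) and 63.0 CPM (cortical MD), with 53.4 and 57.5 CPM in cortical and medullary TAL-β. With no proximal tubule count, TAL-β of cortex held 34.3 CPM of Car2 and TAL-β of medulla 56.2 CPM, and the ratio of medulla to cortex went from 1.08 (0.849 to 1.36) to 1.64 (1.20 to 2.25). Car4 was highest in medullary TAL-γ, 105 CPM (98.3 to 112), and TAL-α, 91.6 CPM (85.6 to 97.9), and lowest in MD, 40.8 CPM (31.7 to 51.7) in cortex and 48.2 CPM (20.8 to 94.9) in medulla. Both genes were also counted in uncalled barcodes of at most 100 counts, a measure of free RNA: Car2 at 76.8 and 88.0 CPM and Car4 at 65.8 and 120 CPM in cortex and medulla. Those barcodes held 13338 and 21372 CPM of Slc12a1, so much of their RNA was of the TAL.

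Slc4a2, the exchanger of the blood side, was the most even member. Its levels ran from 39.0 CPM (33.8 to 44.8) in cortical TAL-β to 50.9 CPM (36.7 to 68.8) in cortical TAL-γ, a 1.30-fold range over the 8 groups in which all intervals overlapped. It was found in 6.41% to 15.7% of the barcodes of a group. Uncalled barcodes held 51.2 CPM of Slc4a2 in cortex and 63.7 CPM in medulla, and no TAL group of the same library stood above them. Much of the RNA of uncalled barcodes was of the TAL, so this comparison cannot tell free RNA from expression.

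Slc4a1 and Slc26a7 were barely detected. Slc4a1 had 26 counts over all TAL barcodes, from 0 to 9 in a group, at 0.502 to 1.21 CPM in the 6 groups with any count and 2.26 and 1.46 CPM in uncalled barcodes. The 5 erythrocyte markers summed to 0 to 5.65 CPM in the groups. Slc26a7 had 88 counts, from 0 to 26 in a group, with 3.26 CPM (2.13 to 4.78) in cortical TAL-α, 5.12 CPM (2.34 to 9.73) in medullary TAL-β, 0 in both MD groups, and 3.39 and 2.92 CPM in uncalled barcodes. For both genes the intervals of all 8 groups overlapped those of the uncalled barcodes. Where Slc26a7 enters a count of members below, it does so on few counts at that level.

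Classes were compared within a library by the ratio of CPM, and a gene with at least 20 counts over both groups was counted as apart when the ratio was at least 2-fold. In cortex, 0 of 8 members with enough counts were 2-fold higher or lower in TAL-β than in TAL-α, where 2.71% and 2.29% of all genes were. The largest member ratio there was that of Car15, 1.54 (1.47 to 1.61). With no proximal tubule count, Car15 was at 1.73 (1.63 to 1.83). Car2 was then 1.94-fold lower in TAL-β, at 0.516 (0.400 to 0.659) in place of 0.714, and still 0 members were 2-fold apart. In medulla, 2 of 8 members were higher in TAL-β than in TAL-α (3.25% of all genes) and 0 lower (5.00%). Car15 was 3.67-fold higher (3.37 to 4.00), a ratio larger than that of 99.4% of the genes tested, and Slc26a7 2.53-fold higher on 9 and 19 counts. The cortical gate admitted more Cldn10 to TAL-β than the medullary one (116 against 55.8 CPM), a difference of class makeup that goes with the smaller Car15 ratio in cortex and whose part in it was not tested.

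Medullary TAL-γ had 0 of 8 members 2-fold higher than TAL-α (1.35% of all genes) and 2 lower (2.98%): Car15, 3.74-fold lower, and Car12, 2.45-fold lower. In medullary TAL-γ, 51 barcodes with over 20 proximal tubule counts held 46.2% of the Car12 counts, against 15.6% in TAL-α, and with no proximal tubule count the Car12 ratio of TAL-γ to TAL-α was 0.222 (0.169 to 0.289) in place of 0.408, and that of TAL-γ to TAL-β 0.136 (0.0983 to 0.187) in place of 0.271. Slc4a7 was 1.41-fold (1.29 to 1.54) and Car4 1.15-fold (1.04 to 1.26) higher. Against medullary TAL-β, TAL-γ had 1 of 8 members higher (5.31%), Slc4a7 at 2.28-fold (1.85 to 2.84), and 3 lower (5.17%), Car15 at 13.7-fold, Car12 at 3.69-fold and Slc26a7, the last on 18 and 9 counts. In cortex, MD had 0 of 8 members 2-fold higher (6.92%) or lower (6.27%) than TAL-α. Slc4a7 at 1.80-fold (1.40 to 2.31) and Car15 at 1.62-fold (1.52 to 1.73) were higher in MD, and Car4 was 1.57-fold lower. With no proximal tubule count, Slc4a7 and Car15 stayed at 1.84 and 1.65 as ratios of MD to TAL-α. Car4 was then at 0.497 (0.338 to 0.710), 1 member past 2-fold. Slc4a4 changed side, to 1.67 (1.28 to 2.17) in place of 0.924. Car12 was at 0.634 (0.510 to 0.783) in place of 0.817.

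Between libraries, TAL-α had 1 of 8 members 2-fold higher in medulla (2.02% of all genes) and 3 lower (11.0%). Slc4a7 was 2.95-fold higher (2.55 to 3.43), a ratio above that of 99.4% of genes. Car12 was 4.53-fold, Slc4a4 4.39-fold and Car15 3.51-fold lower. Among TAL-α barcodes with no proximal tubule count the ratio of medulla to cortex was 2.86 for Slc4a7, within its counting interval. It was 0.267 for Car12 in place of 0.221 and 0.241 for Car15 in place of 0.285, each beyond the counting interval but in the same direction. For Slc4a4 it was 0.866 in place of 0.228. The direction of Car15 turned when the profile of uncalled barcodes was subtracted until the proximal tubule list reached 0. This took away all Car15 counts of cortical TAL-α, so the ratio of 62.3 rests on the 3 counts set in their place. The same subtraction gave 15.3 in TAL-β. In TAL-β, 1 of 8 members was 2-fold higher in medulla (1.27%), Slc26a7 on 9 and 13 counts, and 2 were lower (12.0%), Slc4a4 at 3.98-fold and Car12 at 2.92-fold. With no proximal tubule count these 2 became 0.624 and 0.532 as ratios of medulla to cortex, Car15 went from 0.681 to 0.535, and 0 members were 2-fold apart. The median ratio of all genes tested was 0.935 in TAL-α and 0.937 in TAL-β.

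The medulla library holds deep cortex, so position was also read within a library. For each TAL-α barcode an axial index was taken as the share of 13 medulla-side genes in its counts of these and 12 cortex-side genes, and barcodes were divided by it into 3 equal sets, cortexward, middle and medullaward. The 25 genes come from score lists that the study drew from these same libraries, with Car15 removed, so the index is not independent of the library difference. Its median was 0.306 in cortical and 0.907 in medullary TAL-α. In medulla, Car15 fell from 360 CPM (340 to 381) through 30.7 CPM (24.9 to 37.5) to 4.91 CPM (2.68 to 8.23) from the cortexward to the medullaward set, a 73.4-fold difference. Car12 fell from 98.2 through 23.8 to 8.06 CPM, 12.2-fold. Slc4a7 rose from 41.0 CPM (34.4 to 48.4) through 64.6 to 168 CPM (153 to 183), 4.09-fold, Car2 from 63.8 through 109 to 142 CPM, 2.22-fold, and Car4 from 66.2 through 84.6 to 129 CPM, 1.95-fold. The surface enzyme Car4 and the cytosolic Car2 thus rose along the same axis on which the surface enzymes Car15 and Car12 fell, and Slc4a2 stood at 46.0, 52.9 and 46.6 CPM. Between the medullaward and cortexward sets, 2 of 7 members were 2-fold higher (3.07% of all genes) and 2 lower (9.36%).

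In cortex the same division gave 1 of 7 members higher (8.19%) and 1 lower (2.55%). Car15 fell from 758 through 541 to 258 CPM, 2.94-fold. Slc4a4 rose 6.93-fold, from 102 to 704 CPM, but the proximal tubule list rose with it, from 353 through 2198 to 3970 CPM. Among the 1963 cortical TAL-α barcodes with no proximal tubule count, Slc4a4 stood at 51.3 CPM (40.7 to 63.9), 44.7 CPM (34.9 to 56.5) and 38.2 CPM (29.2 to 49.2) over the 3 sets, with overlapping intervals, and Car12 fell from 166 to 119 CPM rather than rising. Car15 kept its fall there, from 766 CPM (723 to 811) through 615 CPM (577 to 655) to 337 CPM (309 to 367). Slc4a7 showed no steady course in cortex, at 34.0, 23.0 and 37.6 CPM.

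**Figure D3:**
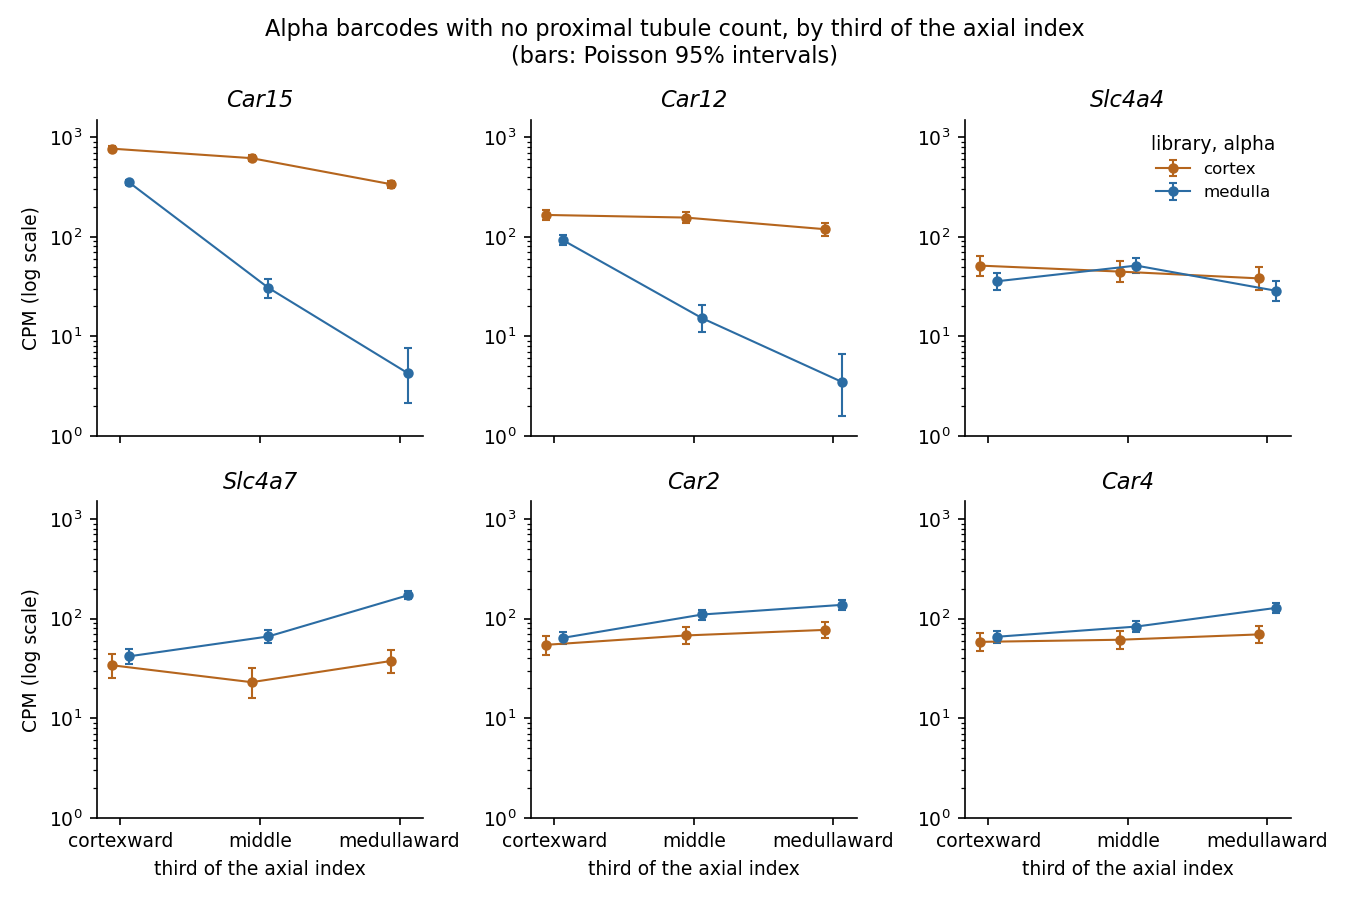
CPM (vertical axes, log scale) of 6 genes in alpha barcodes with no proximal tubule count, by set of the axial index from cortexward to medullaward (horizontal axis), cortex in brown, medulla in blue, with Poisson 95% intervals as bars. In medulla Car15 falls from 353 to 4.27 CPM and Car12 from 92.6 to 3.49 CPM while Slc4a7 rises from 41.8 to 171 CPM, and Slc4a4 stays between 28.7 and 51.4 CPM in both libraries.

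The classes of medulla differ in the index, with a median of 0.984 in TAL-γ, 0.907 in TAL-α and 0.568 in TAL-β. They were therefore set side by side within 3 ranges of it (up to 0.737, from there to 0.970, and above). The index is read from expression and is not a measured position. Pth1r, one of its cortex-side genes, is described by the study as most abundant in TAL-β. Index and class may thus overlap, and these ranges cannot separate position from class. The ranges are wide and the index was not matched further inside them, so the classes may still differ in position within a range. By range, the TAL-γ to TAL-α ratio of Car15 was 1.13 (0.963 to 1.33) in the lowest, 1.39 (1.05 to 1.84) in the middle and 1.65 (0.894 to 3.25) in the highest, where it had been 0.268 over all barcodes. For Car12 the ratios were 0.737 (0.493 to 1.07), 1.04 (0.738 to 1.46) and 1.46 (0.895 to 2.45), where it had been 0.408. Without proximal tubule counts the Car15 ratios were 1.12 (0.937 to 1.33), 1.33 (0.981 to 1.80) and 1.76 (0.908 to 3.67), but Car12 was lower in TAL-γ in the lowest range, at 0.430 (0.237 to 0.721) on 15 and 275 counts, with 0.764 (0.453 to 1.27) and 1.51 (0.687 to 3.64) in the others. Car15 was thus not lower in TAL-γ beyond counting error within any of the ranges, whereas for Car12 this held only in the middle and highest ranges once barcodes with proximal tubule counts were left out. For Slc4a7 the ratios were 1.08 (0.629 to 1.74), 1.28 (1.05 to 1.55) and 0.889 (0.794 to 0.996), where it had been 1.41. Slc4a7 was thus higher in TAL-γ in the middle range but lower in the highest, which held 67.3% of TAL-γ barcodes. Without proximal tubule counts the ratios in the middle and highest ranges were 1.33 (1.08 to 1.63) and 0.865 (0.769 to 0.974). For Car4 the ratios were 1.01, 0.969 and 0.920, none beyond counting error, where it had been 1.15. Car2 was lower in TAL-γ than in TAL-α in the middle and highest ranges, at 0.788 (0.666 to 0.932) and 0.733 (0.645 to 0.833). Without proximal tubule counts these Car2 ratios were 0.850 (0.709 to 1.02) and 0.757 (0.662 to 0.867), so only the highest range stayed beyond counting error. Car15 remained higher in TAL-β than in TAL-α within ranges, 2.04-fold (1.87 to 2.23) in the lowest range and 4.99-fold (3.66 to 6.80) in the middle, while Car12 did not differ between them beyond counting error, at 0.973 (0.776 to 1.21) and 1.05 (0.535 to 1.91). Only 37 TAL-β barcodes lay in the highest range, and no ratio was taken there.

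**Figure D4:**
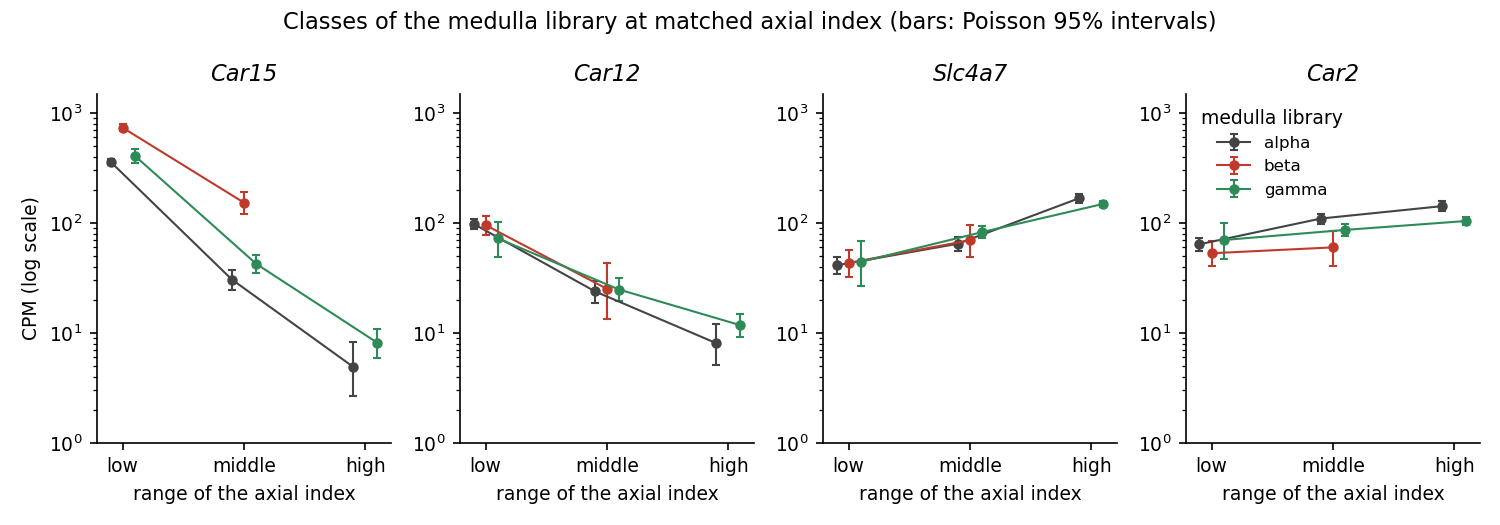
CPM (vertical axes, log scale) of Car15, Car12, Slc4a7 and Car2 in alpha, beta and gamma barcodes of the medulla library over 3 ranges of the axial index (horizontal axis, low to high), with Poisson 95% intervals as bars; groups under 50 barcodes are not drawn. All barcodes are included, also those with proximal tubule counts, and beta lies above alpha for Car15 in the low and middle ranges (733 against 359 CPM and 153 against 30.5 CPM).

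Other genes of acid-base transport were read from 6 lists, beside the 2.02% of all genes that were 2-fold higher and the 11.0% that were 2-fold lower in medullary than in cortical TAL-α. Of 6 further SLC4 genes, 2 were 2-fold lower in medullary than in cortical TAL-α and 0 higher (median ratio 1.02). They were Slc4a9, 7.85-fold lower, and Slc4a10, 4.04-fold lower. Slc4a10, a sodium-coupled bicarbonate transporter known from neurons, stood out in macula densa, with 87.6 CPM in the cortical and 163 CPM in the medullary library, against 6.03 and 1.49 CPM in TAL-α, a 14.5-fold difference in cortex (10.4 to 20.6). Of 10 further SLC26 genes, 8 had enough counts and 1 was higher (Slc26a10, 6.66-fold) and 3 lower in medullary TAL-α (median 0.578). The lower ones included Slc26a4, 27.9-fold, which with Slc4a9 marks type B intercalated cells. A list of 3 markers of these cells that holds both genes summed to 53.7 CPM in TAL-α of cortex, against 3.95 CPM in medulla. Slc4a9 gave 22.6 CPM and Slc26a4 29.8 CPM of the cortical sum, so the list is no independent sign of such cells.

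Of 12 further carbonic anhydrases and related proteins, 7 had enough counts in TAL-α of both libraries, with 0 higher and 2 lower in medulla (median 1.01), Car14 at 4.32-fold and Car8 at 5.35-fold. Car8, a related protein without enzyme activity, was at 225 and 271 CPM in cortical and medullary MD, against 35.9 and 6.72 CPM in TAL-α, and was 6.28-fold higher in cortical MD than in TAL-α (5.37 to 7.35). Car14 was also counted at 102 CPM in cortical proximal tubule-type barcodes. Car5b, a mitochondrial enzyme, was 1.65-fold higher (1.42 to 1.92) in medullary TAL-α.

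Of 10 genes of proton secretion, 8 were tested and 4 were 2-fold lower in medullary TAL-α, with 0 higher (median 0.471), among them Slc9a2 at 2.64-fold and Atp6v1b1 at 2.51-fold. Slc9a3, the apical exchanger on which TAL bicarbonate uptake rests, was 1.72-fold higher (1.65 to 1.79) in medulla, at 683 against 398 CPM, and reached 912 CPM in medullary TAL-γ but 118 CPM in cortical and 24.1 CPM in medullary MD. Slc9a2 ran the other way, at 404 CPM in cortical MD and 21.3 CPM in medullary TAL-γ. Along the medullary axis Slc9a3 rose 1.79-fold, as Slc4a7, Car2 and Car4 did, while Slc9a2 fell 11.2-fold and the proton pump subunit Atp6v1b1 20.7-fold, as Car15 and Car12 did. Of 6 ammonia genes, 5 were tested and 2 were lower in medullary TAL-α (Rhcg and Pck1, median 0.679). The proximal tubule list was also lower there, at 363 against 2345 CPM in cortical TAL-α, and its part in these 2 was not tested. Of 6 genes of bicarbonate sensing that were among the genes counted, 4 were tested, 1 was lower in medullary TAL-α (Insrr, on 1 and 29 counts) and 0 higher, with a median of 1.04.

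The genes whose levels ran most like a member were taken by Pearson's r of log2(CPM + 1) over the 8 groups of class and library, among 8271 genes with at least 500 TAL counts. For Car15 they were Klhl22 (0.993), Ier3 (0.984), Tmcc3 (0.984), Sfrp1 (0.981) and Nt5dc3 (0.979). Klhl22 lies 41887 bases from Car15 on chromosome 16, on the other strand, and Sfrp1 is one of the genes of the axial index. For Car12 they were Hoga1 (0.996), Slc7a8 (0.989), Sema4g (0.984), Bcar1 (0.984) and Trabd2b (0.984). Its levels here include barcodes with over 20 proximal tubule counts, which held 42.3% of the Car12 counts of cortical TAL-α. For Slc4a4 they were Aoah (0.996), Pter (0.995), Glyat (0.995), Slc7a7 (0.993) and Pdzk1 (0.993), among them Glyat and Pdzk1, genes known from the proximal tubule. The 8 groups come from 2 libraries and share depth and free RNA within each, so these values describe the groups and carry no p.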

How the data were processed

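Single-nucleus RNA of 1 cortex and 1 medulla library was analysed. The authors made the libraries with a particle-templated 3' kit, aligned reads to GRCm39 and deposited raw and filtered matrices of counts per gene and barcode, before their own doublet, ambient RNA and normalisation steps. The annotation release and the use of strand in counting are not given in the sources used here. Submitters' processing notes also name Seurat 4.4.0, used by the authors on objects not analysed here.

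Filtered counts were used as deposited, with doublets kept. Barcodes with at least 10 Slc12a1 counts were put into classes by the gates given in the text, counts were summed over each class and library, and sums were divided by the total and multiplied by 1000000 (CPM). Levels carry exact Poisson 95% intervals, ratios conditional binomial intervals and shares Clopper-Pearson intervals. They cover counting error only, and with 1 library per region no test across samples, p-value or SE was possible. A group with 0 counts was set to 3 counts for a ratio. Uncalled barcodes of at most 100 counts came from the raw matrices. The axial index needed at least 5 counts of its genes. Shares of barcodes were also read after thinning to 1000 counts.

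The members and lists were chosen with earlier results of these data known. The strata of proximal tubule counts, the index ranges and the alternatives without any proximal tubule count were chosen after seeing the data. Named genes were the 9 members, at most 4 of each other list (most counts, or 2-fold apart on at least 20 counts), and the 5 genes most like each of the 3 members of widest range. Gene positions came from GENCODE M39. Ratios and intervals were tested on simulated data. The simulated sums were Poisson draws, as the intervals take counts to be, so counts lying in few barcodes were not covered. Python 3.11.15, numpy 2.4.6, scipy 1.17.1, pandas 2.3.3 and matplotlib 3.10.9 were used. Alternatives covered the gates, depth, doublets, other cell types, free RNA, scaling, the index sets and the background's fold and minimum. One result of the list of ammonia genes is not reported here.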

Additional observations from a re-analysis of the deposited data

Results flagged for a closer look

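The courses of Slc4a4 and Car12 along the axial index of TAL-α ran in opposite directions in the 2 libraries. The ratio of the medullaward to the cortexward set was 6.93 for Slc4a4 in cortex and 0.614 in medulla, and 1.15 for Car12 in cortex and 0.0820 in medulla. With 1 library per region the difference between the libraries was not tested. The summed proximal tubule list rose from 353 to 3970 CPM over the cortical sets and went from 423 to 204 CPM over the medullary ones. Among barcodes with no proximal tubule count, cortical Slc4a4 went from 51.3 to 38.2 CPM, a ratio of 0.744 (0.523 to 1.05). In medulla the Slc4a4 ratio was then 0.804 (0.589 to 1.09), so neither ratio was beyond counting error. Car12 went from 166 to 119 CPM in cortex, a ratio of 0.719 (0.592 to 0.871). It fell in medulla too, with a ratio of 0.0377 (0.0171 to 0.0726).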

How the results depend on the processing

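Over 70 member ratios, 782 values under other settings were computed: 620 moved by less than the counting interval, 159 moved further and 3 were labelled reversed. Counted again over all 782 values, 58 lay on the other side of 1, so more than the 3 changed side. Some of these lay near 1, such as Slc4a2 for TAL-γ to TAL-α at 0.999 with stricter gates. Others lay far from it. Slc4a4 for TAL-β to TAL-α in cortex went from 1.19 to 0.419 (0.374 to 0.469) with gates on thinned counts. Car15 for medulla to cortex in TAL-β went from 0.681 to 15.3 after subtraction of the uncalled profile. The numbers of members at least 2-fold apart were 0 (TAL-β to TAL-α in cortex), 2 (the same in medulla), 2 (TAL-γ to TAL-α), 4 (TAL-γ to TAL-β), 0 (MD to TAL-α), 4 (medulla to cortex in TAL-α), 3 (in TAL-β), 2 (cortical index sets) and 4 (medullary index sets), and the values below are those counts, and the widest member ratio of each comparison, where they moved. Stricter gates gave Car15 ratios of TAL-β to TAL-α in medulla of 4.13 and of TAL-γ to TAL-β of 0.0602, and Slc26a7 in MD to TAL-α of 0.803 (0.551 before, with 0 MD counts set to 3). Gates on thinned counts gave 2 members and Car15 at 1.71 for TAL-β to TAL-α in cortex, Car15 at 4.14 in medulla, 2 members for TAL-γ to TAL-β, 2 members and Slc26a7 at 1.18 for MD, and 1 member and Slc4a4 at 0.340 for medulla to cortex in TAL-β. An Slc12a1 gate of 20 gave Slc4a4 over the cortical index sets 7.98. Without the deepest 5% of barcodes, Car15 was at 1.68, 4.13 and 0.0616 for TAL-β to TAL-α in cortex and medulla and TAL-γ to TAL-β, 1 member was apart in MD, and Slc4a4 was at 0.0887 in TAL-β and 6.02 over the cortical index sets. Without barcodes that passed several gates, the same Car15 ratios were 1.64, 5.56 and 0.0481, and 1 member was apart between libraries in TAL-β. Without barcodes holding RNA of other cell types, Car15 was at 1.72 for TAL-β to TAL-α in cortex, Car12 at 0.280 for medulla to cortex in TAL-α, 0 members were apart and Slc4a4 was at 0.512 in TAL-β, and over the cortical index sets 1 member was apart and Slc4a4 reversed to 0.672. Without any proximal tubule count (a setting chosen after seeing the data) the Car15 value was 1.73, and in MD 1 member was apart and Slc26a7 was at 1.08. Between libraries, Car12 was at 0.267 in TAL-α, and in TAL-β 0 members were apart and Slc4a4 was at 0.624. Over the cortical index sets 1 member was apart and Slc4a4 was labelled reversed, at 0.744 (0.523 to 1.05). Division of the index into 2 sets in place of 3 gave Slc4a4 4.06 in cortex and Car15 0.0294 in medulla.

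Subtracting the uncalled profile until the proximal tubule list reached 0 gave 3 members and Car15 at 73.7 for TAL-β to TAL-α in cortex, 6 members and Car15 at 18.1 in medulla, Car15 at 0.00894 and 0.000494 for TAL-γ to TAL-α and to TAL-β, and 3 members and Slc26a7 at 1.24 for MD. Between libraries in TAL-α it gave Car12 at 0.190 and reversed Car15 to 62.3, and it gave 6 members and Slc4a4 at 29.1 over the cortical index sets and Car15 at 0.00267 over the medullary ones. The profile of cortex holds 879 CPM of Car15 and that of medulla 211 CPM, so by construction the subtraction took away many Car15 counts. It left none in cortical TAL-α, in medullary TAL-γ and in the medullaward set of medulla, and these were set to 3 counts. The Car15 ratios of 73.7, 62.3, 0.00894, 0.000494 and 0.00267 rest on that floor and are limits rather than measured values. The direction of Car15 between libraries depends on whether the subtraction is made. The subtracted profile of cortex also held 13338 CPM of Slc12a1, so much of it was RNA of the TAL. Without subtraction, TAL-α barcodes with no proximal tubule count kept the direction, with a ratio of medulla to cortex of 0.241. The cause of the other changes was not tested. Ratios of Slc4a1 and Slc26a7 rest on at most 26 counts a group, at the level of the uncalled barcodes, which limits what depth can show for them. No paired analysis was possible because each region has 1 library and no test was made.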
